A study of Mus musculus with 6 samples.

Results

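The 49 genes described here build, sulfate and trim the chondroitin, dermatan and heparan sulfate chains of proteoglycans, together with 2 sulfotransferases of keratan sulfate and related chains, Chst1 and Chst2. They were chosen by gene symbol, from a fixed list of linker, polymerase, sulfotransferase, sulfate supply and UDP-sugar genes. The choice used no threshold on a measured value, but it was made with earlier results of these data known. All 49 were among the 44788 genes of the count table. Of these, 47 had enough counts to be tested, among 15362 tested genes in all.

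Cultured chondrocytes from the femoral epiphysis of C57BL/6 mice, labelled as postnatal day 1, were profiled by RNA sequencing in 3 groups of 2 libraries. The control cells received 0.1% DMSO, which was also present in both other groups; the second group was treated with 10 ng/ml TGF-alpha over 48 h; and the third received gefitinib at 10 µM from 30 min before the same TGF-alpha treatment and throughout it. TGF-alpha activates the receptor of epidermal growth factor, gefitinib inhibits that receptor's kinase, and the series title names the effect of activating the receptor on chondrocytes as its subject. All groups were cultured with 10% FBS, no group with gefitinib alone was analysed here, the series' design text calls the control PBS and the cells P2, and nothing says whether the libraries of a group came from separate animals or cultures. The p-values therefore measure only the spread between these libraries, which may be technical.

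Glycosaminoglycans are long sugar chains attached to core proteins such as aggrecan. Each chain starts with a xylose placed on a serine of the core protein and a short linker built on it, and is then lengthened with alternating sugars into chondroitin or heparan. Sulfotransferases in the Golgi add sulfate groups at set positions, drawing on a sulfate donor called PAPS that is made from imported sulfate. In cartilage the densely charged chondroitin sulfate chains of aggrecan hold water and give the tissue its resistance to compression, and inherited defects in many of these genes cause skeletal dysplasias.

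The libraries held between 12317407 and 16096263 counts, and between 20600 and 21067 genes were detected in each. The members took 0.473% ± 0.00395 of all counts in control cells, 0.449% ± 0.00118 under TGF-alpha and 0.482% ± 0.00196 under TGF-alpha plus gefitinib (mean ± SD, n = 2 libraries, as for every mean ± SD here). Levels are CPM, the counts of a gene relative to its library's total, scaled for library composition, and each log2 fold change is given with its standard error. A gene is said to have risen or fallen only where the edgeR quasi-likelihood test, adjusted over all 15362 tested genes, gave an adjusted p under 0.05. The label of chondrocytes was checked against 8 marker genes, including Col2a1, Acan and Sox9, which were all detected. Their summed level was 62257 to 66810 CPM in control cells, 32892 to 34000 under TGF-alpha, and 54720 to 57566 when gefitinib was added. Each of the 8 fell with TGF-alpha and was higher with gefitinib added than with TGF-alpha alone. Over all tested genes, these shares were 14.0% and 17.0%. Between TGF-alpha plus gefitinib and control, 5 of the 8 were lower, where 4.26% of all tested genes were. In bulk RNA, fewer cells of a type and less RNA per cell cannot be told apart. A list of 6 fibroblast and perichondrium markers summed to between 21983 and 23871, 14399 and 14519, and 16485 and 16877 CPM in the same order of groups. Among them, 1 rose and 3 fell with TGF-alpha, where 15.9% and 14.0% of all tested genes did. Of 5 macrophage markers found in the table, Ptprc had 0 counts in every library and the 5 summed to between 5.46 and 5.54 CPM in control, 12.04 and 15.6 with TGF-alpha, and 6.51 and 8.96 with gefitinib added. All 3 of these markers that could be tested changed with TGF-alpha, 2 of them higher and 1 lower. These counts stand beside the same 15.9% and 14.0% of all tested genes. The 6 osteoblast markers summed to between 145 and 154, 80.5 and 87.6, and 98.4 and 99.5 CPM in the same order. The sum does not speak for each marker. Of the 5 that could be tested, 2 fell with TGF-alpha and none rose, and their median log2 fold change was 0.19. Between TGF-alpha plus gefitinib and control, 1 of the 5 was higher and 2 lower, where 5.27% and 4.26% of all tested genes were. The 5 endothelial markers summed to at most 0.649 CPM, with Cdh5 and Emcn at 0. The part of these shifts in the results that follow was not tested.

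With TGF-alpha, 25 of the 47 tested members changed against control, where 29.9% of all tested genes did. Of these, 18 fell, against a background of 14.0% of all genes, and 7 rose, against 15.9%. Changes of at least 2-fold were found for 6 members, against 7.07% of all genes. The median log2 fold change of the members was -0.10, beside 0.00 for all tested genes. When gefitinib was added to TGF-alpha, 27 members changed against TGF-alpha alone, where 34.0% of all genes did. Here 17 were higher (17.0% of all genes) and 10 lower (16.9%), 5 of them by at least 2-fold (7.88%), and the median was 0.13 beside 0.01. Between TGF-alpha plus gefitinib and control, 6 members differed, 1 higher (5.27% of all genes) and 5 lower (4.26%), which is near the 9.52% of all genes that differed. A change of at least 2-fold was found there for 1 member, against 0.690% of all genes. The way of scaling shifts the balance of directions in 2 of these comparisons. With library totals and no composition scaling, the members split into 9 higher and 15 lower with TGF-alpha, and into 4 higher and 3 lower between TGF-alpha plus gefitinib and control. All tested genes then split into 3034 higher and 1604 lower in place of 2446 and 2154, and into 1333 and 388 in place of 809 and 654. Upper quartile scaling moved the balance the other way. All tested genes were then 2244 higher and 2413 lower with TGF-alpha, and 723 and 784 between TGF-alpha plus gefitinib and control. The members were 6 higher and 19 lower, and 1 and 6.

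Set side by side, the 3 comparisons gave each member a pattern. Because the first and the second comparison share the TGF-alpha libraries, opposite signs in them are not independent of each other. Lower with TGF-alpha, higher with gefitinib added and not called against control were 14 members: B4galt7, Chsy1, Chsy3, Csgalnact1, Chst11, Ust, Chst2, Extl1, Hs3st3b1, Sulf2, Papss1, Papss2, Slc26a2 and Slc35b2. Xylt1 shared the first 2 calls and was also above control with gefitinib. In the opposite direction, 7 members rose with TGF-alpha and were lower with gefitinib added; Chst3, Chst7 and Ugdh were then not called against control, and Dse, Chst1, Hs6st2 and Sulf1 were below it. No call was made in any comparison for 17 members. These patterns were not counted over all tested genes, so the numbers describe the list only.

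**Figure D1:**
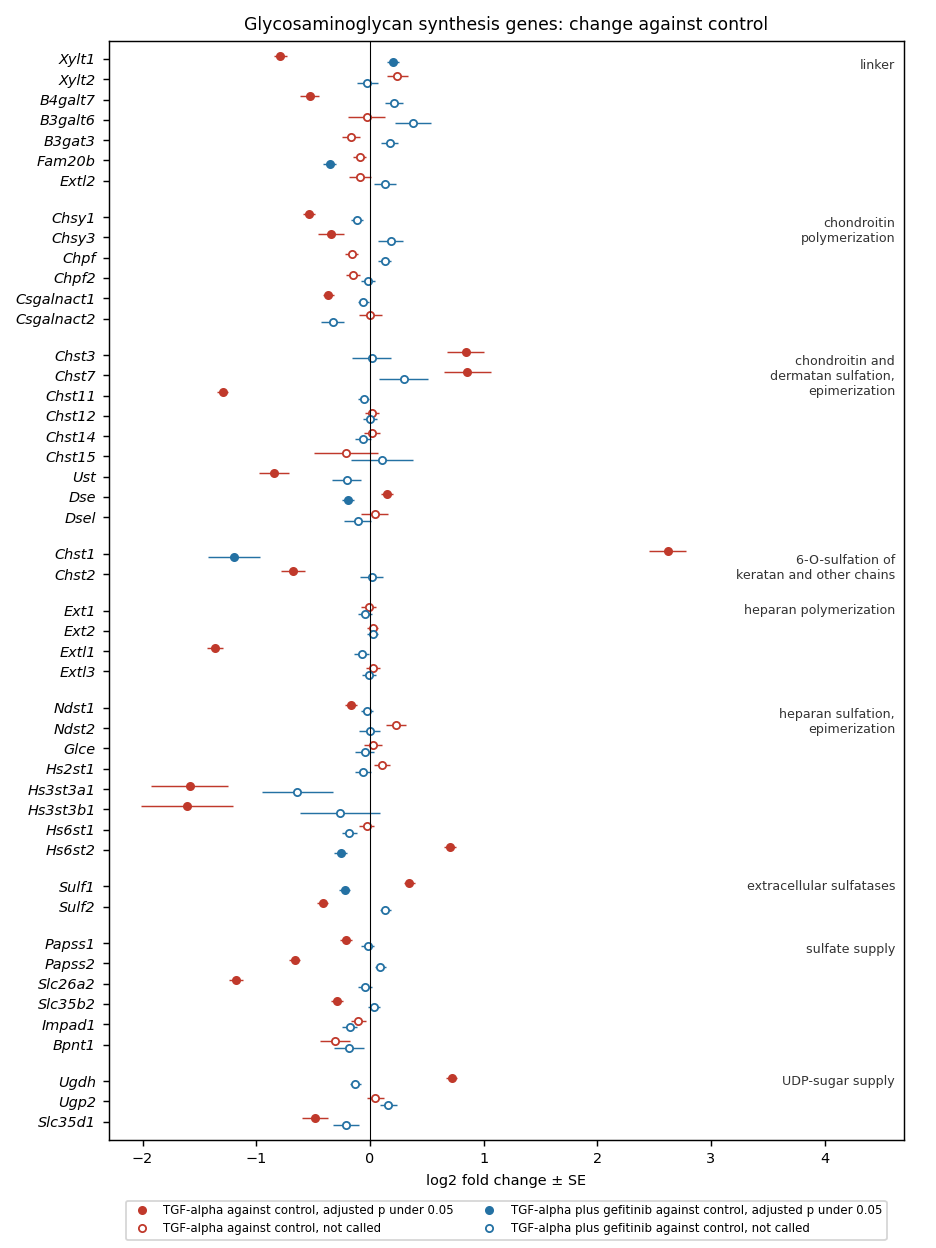
Log2 fold change against control (x axis, ± SE) of the 47 tested members, grouped by role from linker synthesis to UDP-sugar supply, with TGF-alpha in red and TGF-alpha plus gefitinib in blue; filled points have an adjusted p under 0.05. The red points run from -1.61 for Hs3st3b1 to 2.62 for Chst1, while most blue points lie near 0 and 6 of them are filled.

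Promoter sequences are shown for 3 of the members that changed by at least 2-fold with TGF-alpha at a level of at least 10 CPM in 1 group or more; Slc26a2 also met this rule and has no entry in the sequence table. Chst1 reached 10 CPM only in the TGF-alpha group, where it is high. The genes were thus chosen by their change, and the windows are shown as a description, not as a contrast of risen and fallen genes. Each window covers 250 bases before to 50 bases after the gene start in the RefSeq annotation of GRCm38.p6, read along the gene's strand, and CpG dinucleotides are in capitals.
Chst11 promoter, chr10:82985247-82985546, plus strand: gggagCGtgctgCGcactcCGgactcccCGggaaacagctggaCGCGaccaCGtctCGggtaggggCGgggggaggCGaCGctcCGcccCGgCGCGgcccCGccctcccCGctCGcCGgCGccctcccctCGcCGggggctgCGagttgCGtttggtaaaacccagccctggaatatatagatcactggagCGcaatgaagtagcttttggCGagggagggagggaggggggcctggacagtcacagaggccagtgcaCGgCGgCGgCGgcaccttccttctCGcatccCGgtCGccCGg
Extl1 promoter, chr4:134372498-134372797, minus strand: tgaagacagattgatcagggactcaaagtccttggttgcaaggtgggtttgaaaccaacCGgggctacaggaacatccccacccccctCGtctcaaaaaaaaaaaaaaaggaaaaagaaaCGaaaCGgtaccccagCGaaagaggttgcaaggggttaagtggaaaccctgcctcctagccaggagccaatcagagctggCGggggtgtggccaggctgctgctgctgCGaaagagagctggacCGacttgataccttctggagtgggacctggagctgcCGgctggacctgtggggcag
Chst1 promoter, chr2:92600867-92601166, plus strand: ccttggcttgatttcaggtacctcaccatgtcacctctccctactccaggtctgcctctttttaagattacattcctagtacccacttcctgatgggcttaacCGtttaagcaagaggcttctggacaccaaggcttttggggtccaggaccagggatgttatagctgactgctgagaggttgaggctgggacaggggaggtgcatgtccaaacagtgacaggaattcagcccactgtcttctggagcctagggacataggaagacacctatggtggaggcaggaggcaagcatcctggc
The GC content of the window is 71% for Chst11 with 34 CpGs, 55.3% for Extl1 with 9 CpGs and 52.7% for Chst1 with 1 CpG. The Extl1 and Chst1 starts in RefSeq lie inside the longer gene models of the GENCODE M21 annotation, so other starts of these genes are not covered.

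Of the 49 members, 40 had an entry, with 49 windows among 32851 for all genes. The median window of a member held 23 CpGs and the median of all windows 7. Only 4 of the 49 member windows held 7 or fewer, and these belong to Chst1, Extl2, Papss1 and Papss2. Of these genes, Extl2, Papss1 and Papss2 each have another window, with 34, 27 and 27 CpGs. Searched on both strands, the AP-1 motif TGANTCA was in 2.04% of the member windows, that of Csgalnact2, and in 7.81% of all windows. The ETS motif CCGGAAGT was in 6.12% against 3.89%, and the SOX motif ACAATGG in none against 3.66%. The CRE motif TGACGTCA was in 4.08% against 1.79%, and the E-box CACGTG in 10.2% against 7.15%. These shares rest on few of the 49 member windows: 1 for AP-1, 3 for ETS, 2 for CRE and 5 for the E-box. The ETS, CRE and E-box letters each contain a CpG, and those of AP-1 and SOX do not. The part of the members' higher CpG content in these shares was not tested. None of the 3 windows printed above holds any of these letters. Such matches describe the letters in these windows and carry no statement on binding.

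The linker that joins a chain to its core protein is begun by a xylosyltransferase, and mouse cells have a pair of these, Xylt1 and Xylt2. Xylt1 (chr7:117380979-117673580, GRCm38) stood at 158 and 149.9 CPM in the control libraries, 89.9 and 88.4 with TGF-alpha, and 178 and 176 with TGF-alpha plus gefitinib. The lowest libraries were those with TGF-alpha and the highest those with gefitinib, with no overlap between groups. Xylt1 fell by 0.79 ± 0.05 on the log2 scale with TGF-alpha, a 1.73-fold difference (edgeR adjusted p = 4.26e-08). With gefitinib added it was 1.99-fold higher than with TGF-alpha alone (log2 0.99 ± 0.05, edgeR adjusted p = 3.24e-09). It was also 1.15-fold above control (log2 0.20 ± 0.05, edgeR adjusted p = 0.0256), a call lost without any one of the 4 control and gefitinib libraries (edgeR adjusted p from 0.0642 without control 1 to 0.222 without control 2). Xylt2 moved little and not in parallel: it stood at 40.0 and 39.8 CPM in control, 47.9 and 46.3 with TGF-alpha, and 42.9 and 35.3 with gefitinib added. Its difference between TGF-alpha and control was log2 0.24 ± 0.09 (edgeR adjusted p = 0.0617). The 1.20-fold lower level with gefitinib than with TGF-alpha alone passed the test (edgeR adjusted p = 0.0372) but not without gefitinib replicate 2 (0.351), either TGF-alpha library (0.167 and 0.0949) or either control library (0.0581 and 0.0555).

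The sugars after xylose are added by B4galt7, B3galt6 and B3gat3, which transfer the first galactose, the second galactose and the glucuronic acid of the linker. B4galt7 stood at 44.7 and 46.3 CPM in control, 32.6 and 30.5 with TGF-alpha, and 55.7 and 49.5 with gefitinib added. Its TGF-alpha libraries were below all others. It fell 1.44-fold with TGF-alpha (log2 -0.53 ± 0.09, edgeR adjusted p = 0.000228) and was 1.67-fold higher with gefitinib than with TGF-alpha alone (log2 0.74 ± 0.08, edgeR adjusted p = 7.9e-06). B3gat3 stood at 44.5 and 46.2 CPM in control, 41.5 and 39.3 with TGF-alpha, and 52.1 and 50.2 with gefitinib, and passed the test between the last 2 groups, which were 1.27-fold apart (log2 0.34 ± 0.08, edgeR adjusted p = 0.00271). B3galt6 was not called in any comparison (log2 -0.03 ± 0.16 with TGF-alpha). Between gefitinib and TGF-alpha alone its difference missed the threshold (log2 0.41 ± 0.16, edgeR adjusted p = 0.0591). It passed there with no low-count filter (edgeR adjusted p = 0.042), and ran from log2 0.23 to 0.61 over the alternatives.

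Fam20b, the kinase that phosphorylates the linker xylose and so favours its extension, had another pattern. It stood at 196 and 190.3 CPM in control, 178 and 184 with TGF-alpha, and 142 and 159.6 with TGF-alpha plus gefitinib. The gefitinib libraries were the lowest, and the difference between TGF-alpha and control missed the threshold (log2 -0.09 ± 0.06, edgeR adjusted p = 0.285). The level with gefitinib was 1.20-fold below TGF-alpha alone (log2 -0.26 ± 0.06, edgeR adjusted p = 0.00296) and 1.28-fold below control (log2 -0.35 ± 0.06, edgeR adjusted p = 0.00142). Of the 6 members called between TGF-alpha plus gefitinib and control, Fam20b was the only one whose call held under every alternative setting and with each library left out. Extl2, which can cap the phosphorylated linker, was not called in any comparison.

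Lengthening of the chondroitin chain needs an initiating N-acetylgalactosaminyltransferase (Csgalnact1 or Csgalnact2) and a polymerase made of Chsy1 or Chsy3 with Chpf or Chpf2. Of these 6 genes, 3 fell with TGF-alpha and none rose, where 14.0% and 15.9% of all tested genes did. When gefitinib was added to TGF-alpha, 4 were higher and 1 lower, where 17.0% and 16.9% of all tested genes were. None was called between TGF-alpha plus gefitinib and control. Chsy1 stood at 189 and 191 CPM in control, 134 and 128 with TGF-alpha, and 177 and 174 with gefitinib added. Every TGF-alpha library was below every other library, and the gefitinib libraries lay just under the control ones. The fall was 1.45-fold (log2 -0.54 ± 0.05, edgeR adjusted p = 1.42e-06), and the level with gefitinib was 1.34-fold above TGF-alpha alone (edgeR adjusted p = 1.45e-05). Its difference from control was then log2 -0.11 ± 0.05 (edgeR adjusted p = 0.202). Csgalnact1 stood at 247 and 252 CPM in control, 198 and 189.9 with TGF-alpha, and 240.3 and 239.6 with gefitinib. It fell 1.29-fold with TGF-alpha (log2 -0.37 ± 0.05, edgeR adjusted p = 3.56e-05) and was 1.24-fold higher with gefitinib added (edgeR adjusted p = 0.000169).

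The less abundant chondroitin synthase gene Chsy3 stood at 16.2 and 17.2 CPM in control, 12.8 and 13.5 with TGF-alpha, and 19.1 and 18.8 with gefitinib added. Its 1.27-fold lower level with TGF-alpha (log2 -0.35 ± 0.12, edgeR adjusted p = 0.0356) was not called when any of the 4 libraries compared was left out (0.0703 without control 1, 0.181 without control 2, 0.155 without TGF-alpha replicate 1 and 0.0874 without replicate 2). The 1.44-fold difference between gefitinib and TGF-alpha alone (edgeR adjusted p = 0.00241) kept its call in each of these fits. Chpf, the partner subunit of the polymerase, stood at 112 and 105 CPM in control, 99.4 and 94.5 with TGF-alpha, and 119 and 118 with gefitinib. It was called only between the last 2 groups, which were 1.22-fold apart (edgeR adjusted p = 0.00137), and its difference between TGF-alpha and control missed the threshold (log2 -0.16 ± 0.06, edgeR adjusted p = 0.0509) but passed it under 6 of 14 alternatives (lowest edgeR adjusted p = 0.0239). Chpf2 was not called in any comparison; 44.1% of its exon bases overlap genes on the opposite strand, among them Smarcd3, and the strand setting of the counting is not given in the sources used here. Csgalnact2 was 1.26-fold lower with gefitinib than with TGF-alpha alone (edgeR adjusted p = 0.02), a call lost without TGF-alpha replicate 1 (0.205) or gefitinib replicate 2 (0.0821).

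Chondroitin is sulfated mainly at the 4 or the 6 position of its N-acetylgalactosamine. The 4-O-sulfotransferase Chst11 (chr10:82985498-83195900, GRCm38), whose loss in mice severely disturbs the growth plate, stood at 291 and 274 CPM in control, 116 and 115 with TGF-alpha, and 274 and 269.9 with TGF-alpha plus gefitinib. Both TGF-alpha libraries were far below the other 4, which lay within a narrow range. Chst11 fell 2.46-fold with TGF-alpha (log2 -1.30 ± 0.05, edgeR adjusted p = 9.95e-11). It was 2.36-fold higher with gefitinib added (log2 1.24 ± 0.05, edgeR adjusted p = 1.43e-10) and then differed from control by log2 -0.06 ± 0.05 (edgeR adjusted p = 0.557). The related 4-O-sulfotransferase Chst12 was not called in any comparison, at log2 0.02 ± 0.06 with TGF-alpha (edgeR adjusted p = 0.875). Its libraries ranged from 76.8 to 84.6 CPM over all 3 groups. Chst13, the other gene of this family, had 0 counts in every library, which allows up to 3 counts per library or 0.186 to 0.244 CPM.

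The 6-O-sulfotransferase genes Chst3 and Chst7, of which Chst3 is mutated in a human dysplasia of the spine and joints, were expressed at low levels and changed the opposite way. Chst3 stood at 8.27 and 6.94 CPM in control, 14.6 and 12.6 with TGF-alpha, and 8.15 and 7.12 with gefitinib added. Its highest libraries were those with TGF-alpha, and the other 2 groups overlapped. Chst3 rose 1.79-fold with TGF-alpha (log2 0.84 ± 0.16, edgeR adjusted p = 0.00108) and was 1.77-fold lower with gefitinib than with TGF-alpha alone (log2 -0.83 ± 0.16, edgeR adjusted p = 0.00116). Chst7 stood at 4.84 and 3.76 CPM in control, 7.93 and 7.56 with TGF-alpha, and 5.0 and 5.52 with gefitinib. It rose 1.81-fold with TGF-alpha (log2 0.86 ± 0.21, edgeR adjusted p = 0.00544), though not without control 2 (0.0674). The 1.47-fold lower level with gefitinib than with TGF-alpha alone (edgeR adjusted p = 0.0459) was lost without any of those 4 libraries (0.168, 0.111, 0.17 and 0.0822).

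Ust, which sulfates the uronic acid of chondroitin and dermatan sulfate, stood at 19.3 and 17.7 CPM in control, 9.59 and 11 with TGF-alpha, and 14.7 and 17.4 with gefitinib added. The TGF-alpha libraries were the lowest and every gefitinib library lay between them and control. It fell 1.79-fold with TGF-alpha (log2 -0.84 ± 0.13, edgeR adjusted p = 0.000209) and was 1.56-fold higher with gefitinib added (edgeR adjusted p = 0.00213). Dse, an epimerase that turns chondroitin into dermatan, stood at 197 in both control libraries, 213 and 223 CPM with TGF-alpha, and 168 and 176 with gefitinib. It was 1.27-fold lower with gefitinib than with TGF-alpha alone (log2 -0.34 ± 0.05, edgeR adjusted p = 0.000107). Its 1.11-fold rise with TGF-alpha (edgeR adjusted p = 0.0372) was not called without any one of the 4 libraries compared (0.146, 0.149, 0.0581 and 0.25). Its 1.14-fold lower level with gefitinib than in control (edgeR adjusted p = 0.0295) was not called without control 1 (0.143), control 2 (0.148) or gefitinib replicate 1 (0.127). The second epimerase gene Dsel, the dermatan 4-O-sulfotransferase Chst14 and the disulfating enzyme Chst15 were not called in any comparison; 17.9% of the exon bases of Chst15 overlap another gene, Gm10584.

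Chst1 and Chst2 sulfate the 6 position of galactose and of N-acetylglucosamine, as in keratan sulfate, and changed in opposite directions. Chst1 (chr2:92599707-92615250, GRCm38) stood at 3.59 and 4.65 CPM in control, 25.5 and 25.6 with TGF-alpha, and 1.92 and 1.68 with TGF-alpha plus gefitinib. Behind these levels are 46 and 73 counts in control, 354 and 352 with TGF-alpha and 28 and 21 with gefitinib. The 3 groups did not overlap, and the gefitinib libraries lay below control. The rise with TGF-alpha was 6.14-fold (log2 2.62 ± 0.16, edgeR adjusted p = 9.95e-09), and of the 47 tested members it was the largest in that comparison. With gefitinib added the level was 14.1-fold below TGF-alpha alone (log2 -3.82 ± 0.18, edgeR adjusted p = 7.43e-10) and 2.29-fold below control (log2 -1.20 ± 0.23, edgeR adjusted p = 0.00376). The last call was lost without control 2 (0.0606).

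Chst2 stood at 29.4 and 34.8 CPM in control, 20.4 and 19.8 with TGF-alpha, and 31.8 and 33.3 with gefitinib added. Both TGF-alpha libraries were the lowest, and the gefitinib libraries lay within the control range. It fell 1.60-fold with TGF-alpha (log2 -0.68 ± 0.10, edgeR adjusted p = 0.000149) and was 1.62-fold higher with gefitinib added (edgeR adjusted p = 0.000112).

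**Figure D2:**
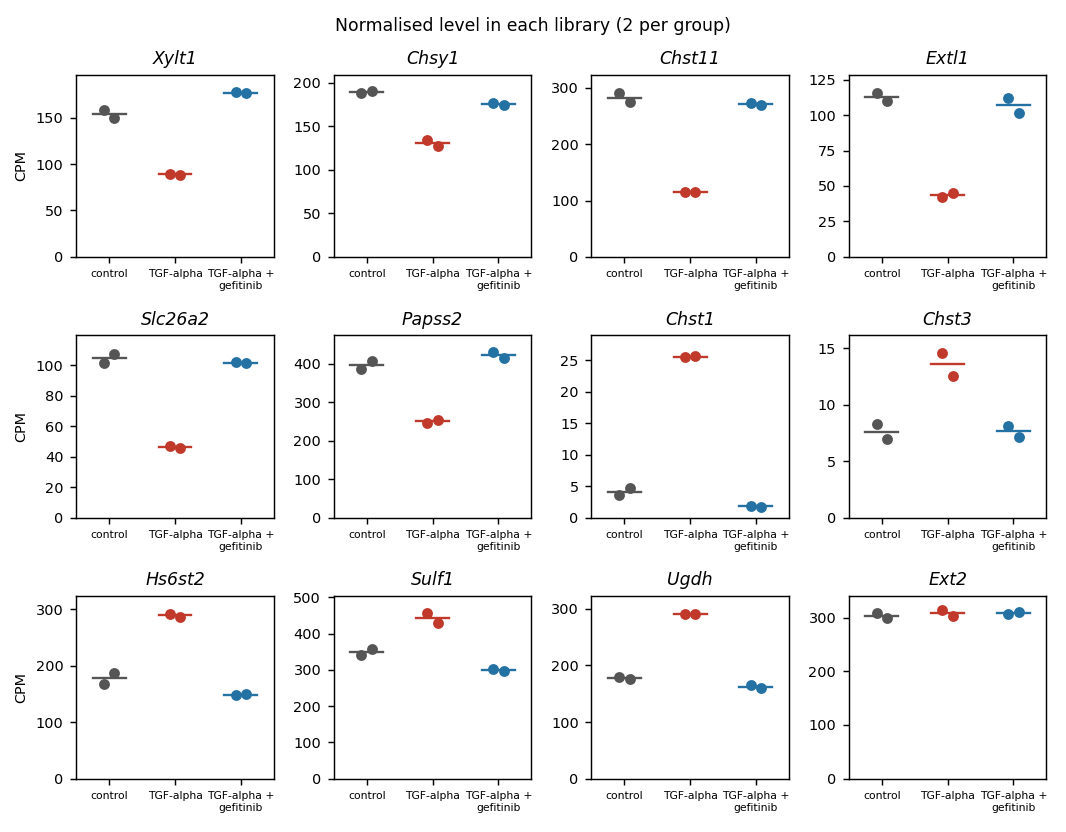
CPM (y axis of each panel, from 0) in each library of the 3 groups for selected members; points are single libraries and lines the group means. Chst11, Extl1, Slc26a2, Papss2 and Xylt1 are lowest in the TGF-alpha libraries, Chst1, Hs6st2, Ugdh and Sulf1 are highest there, and Ext2 lies between 298 and 314 in all 6.

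The heparan chain is polymerized by the complex of Ext1 and Ext2, the genes mutated in hereditary multiple osteochondromas, after a start made by Extl3. None of these 3 genes was called in any comparison. Ext1 ranged from 109 to 122 CPM over the 6 libraries and differed between TGF-alpha and control by log2 -0.01 ± 0.06 (edgeR adjusted p = 0.912). Ext2 ranged from 298 to 314 CPM and differed by 0.02 ± 0.05 (edgeR adjusted p = 0.752). Extl3 ranged from 70.6 to 75.5 CPM and differed by 0.03 ± 0.06 (edgeR adjusted p = 0.777). Extl1 (chr4:134356372-134383850, GRCm38), a related N-acetylglucosaminyltransferase, stood apart from them. It stood at 115 and 110.0 CPM in control, 42.3 and 45.2 with TGF-alpha, and 112 and 102 with gefitinib added. Both TGF-alpha libraries were well below the other 4, and the control and gefitinib groups overlapped. Extl1 fell 2.58-fold with TGF-alpha (log2 -1.36 ± 0.07, edgeR adjusted p = 1.65e-09) and was 2.45-fold higher with gefitinib added (log2 1.29 ± 0.07, edgeR adjusted p = 3.02e-09).

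Heparan is then modified by N-deacetylase and N-sulfotransferase enzymes (Ndst1, Ndst2), the epimerase Glce, and 2-O-, 6-O- and 3-O-sulfotransferases. Of the 8 tested genes of this group, 1 rose and 3 fell with TGF-alpha, where 15.9% and 14.0% of all tested genes did; the falls of Ndst1 and Hs3st3b1 are lost when certain libraries are left out. The 6-O-sulfotransferase gene Hs6st2 (chrX:51387212-51681856, GRCm38) stood at 168 and 187 CPM in control, 292 and 287 with TGF-alpha, and 148 and 149 with gefitinib added. The TGF-alpha libraries were the highest, and the gefitinib libraries lay below control. Hs6st2 rose 1.63-fold with TGF-alpha (log2 0.70 ± 0.06, edgeR adjusted p = 1.59e-07) and was 1.95-fold lower with gefitinib than with TGF-alpha alone (log2 -0.96 ± 0.06, edgeR adjusted p = 5.93e-09). Its 1.19-fold lower level with gefitinib than in control (edgeR adjusted p = 0.00983) was not called without control 2 (0.156). The related 6-O-sulfotransferase gene Hs6st1 was not called in any comparison and ranged from 52.8 to 60.6 CPM.

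The 3-O-sulfotransferase genes Hs3st3a1 and Hs3st3b1 lie near each other on chromosome 11 and were among the least expressed members. Hs3st3a1 stood at 3.43 and 2.93 CPM in control, 0.865 and 1.24 with TGF-alpha, and 1.92 and 2.16 with gefitinib. Hs3st3b1 stood at 2.97 and 2.61, 0.505 and 1.31, and 2.54 and 2.08 CPM in the same order, from 7 to 41 counts per library. For both genes the TGF-alpha libraries were the lowest. Hs3st3a1 fell 3.0-fold with TGF-alpha (log2 -1.59 ± 0.34, edgeR adjusted p = 0.00244), and Hs3st3b1 fell 3.05-fold (log2 -1.61 ± 0.41, edgeR adjusted p = 0.0073), though not without TGF-alpha replicate 1 (log2 -1.08, 0.0886). Without TGF-alpha replicate 2 the Hs3st3b1 difference was log2 -2.44, so its size depends on single libraries. Hs3st3b1 was 2.54-fold higher with gefitinib than with TGF-alpha alone (edgeR adjusted p = 0.0219), a call lost without TGF-alpha replicate 1 (log2 0.82, 0.197) or gefitinib replicate 1 (0.115), and at log2 2.18 without TGF-alpha replicate 2. Both values are uncertain because the pair share sequence: 42.8% of the 50-base stretches of Hs3st3a1 also occur in Hs3st3b1 or in the overlapping opposite-strand gene F930015N05Rik, and 8.56% of those of Hs3st3b1 occur in Hs3st3a1. Hs3st1 had at most 5 counts in a library and was not tested.

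Ndst1 stood at 139 and 141 CPM in control, 126 and 124 with TGF-alpha, and 137 and 139 with gefitinib added. Its 1.12-fold fall with TGF-alpha (log2 -0.17 ± 0.05, edgeR adjusted p = 0.0265) was not called without any one of the 4 libraries compared (0.0735, 0.141, 0.0886 and 0.128). Ndst2, Glce and the 2-O-sulfotransferase gene Hs2st1 were not called in any comparison, and Ndst2 came nearest. Its difference was log2 -0.23 with gefitinib against TGF-alpha alone (edgeR adjusted p = 0.0565) and log2 0.23 with TGF-alpha against control (edgeR adjusted p = 0.0639).

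Outside the cell, the endosulfatases Sulf1 and Sulf2 remove 6-O-sulfate groups from heparan sulfate, and their genes changed in opposite directions. Sulf1 (chr1:12692277-12861192, GRCm38) stood at 340.1 and 357 CPM in control, 458 and 428 with TGF-alpha, and 302 and 296 with gefitinib added. Sulf2 stood at 288 and 291, 224 and 209.9, and 314 and 321 CPM in the same order. Each gene had its 3 groups in separate ranges, with TGF-alpha at the top for Sulf1 and at the bottom for Sulf2. Sulf1 rose 1.27-fold with TGF-alpha (log2 0.35 ± 0.05, edgeR adjusted p = 7.03e-05) and was 1.48-fold lower with gefitinib added (log2 -0.57 ± 0.05, edgeR adjusted p = 4.87e-07). It was also 1.17-fold below control (edgeR adjusted p = 0.011), though not without control 2 (0.131) or gefitinib replicate 2 (0.0554). Sulf2 fell 1.33-fold with TGF-alpha (log2 -0.42 ± 0.05, edgeR adjusted p = 1.26e-05) and was 1.46-fold higher with gefitinib added (log2 0.55 ± 0.05, edgeR adjusted p = 6.68e-07).

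Sulfate enters chondrocytes through the transporter Slc26a2, the gene mutated in diastrophic dysplasia, is activated to PAPS by Papss1 or Papss2, and reaches the Golgi as PAPS through Slc35b2. All 4 of these genes, out of 6 counted under sulfate supply, fell with TGF-alpha and were higher with gefitinib added. None was then called against control. Of all tested genes, 14.0% fell with TGF-alpha and 17.0% were higher with gefitinib than with TGF-alpha alone. Slc26a2 stood at 102 and 108 CPM in control, 47.2 and 45.4 with TGF-alpha, and 102 and 101 with gefitinib. The other 4 libraries lay close together, far above those with TGF-alpha. It fell 2.26-fold (log2 -1.18 ± 0.06, edgeR adjusted p = 2.43e-09) and was 2.19-fold higher with gefitinib added (edgeR adjusted p = 3.73e-09). Papss2 (chr19:32595790-32667187, GRCm38), the PAPS synthase whose loss causes a human spondyloepimetaphyseal dysplasia, stood at 387 and 406 CPM in control, 246 and 255 with TGF-alpha, and 429 and 416 with gefitinib. It fell 1.58-fold (log2 -0.66 ± 0.05, edgeR adjusted p = 6.56e-08) and was 1.69-fold higher with gefitinib added (log2 0.75 ± 0.05, edgeR adjusted p = 1.49e-08).

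Slc35b2 stood at 128 and 129.8 CPM in control, 106 in both TGF-alpha libraries, and 136 and 129 with gefitinib added. It fell 1.22-fold with TGF-alpha (edgeR adjusted p = 0.000963) and was 1.25-fold higher with gefitinib added (edgeR adjusted p = 0.000336). Papss1 stood at 149.9 and 144 CPM in control, 123 and 131 with TGF-alpha, and 144 and 146 with gefitinib. Its changes were the smallest of the 4 genes: it fell 1.16-fold (edgeR adjusted p = 0.00996), though not without control 1 (0.0888) or TGF-alpha replicate 1 (0.118). It was 1.14-fold higher with gefitinib than with TGF-alpha alone (edgeR adjusted p = 0.0165), though not without TGF-alpha replicate 1 (0.164) or either gefitinib library (0.0568 and 0.0556). Impad1 and Bpnt1, phosphatases that clear the by-product of PAPS use in the Golgi and in the cytosol, were not called in any comparison (log2 -0.10 ± 0.07 and -0.31 ± 0.13 with TGF-alpha).

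The glucuronic acid donor of the chains comes from UDP-glucose, which Ugp2 makes and Ugdh oxidizes to UDP-glucuronic acid. UDP-glucuronic acid enters the endoplasmic reticulum through Slc35d1. Ugdh (chr5:65413221-65435949, GRCm38), whose product also feeds hyaluronan, stood at 179 and 175 CPM in control, 292 in both TGF-alpha libraries, and 165 and 159.6 with gefitinib added. The TGF-alpha libraries were the highest, opposite to the sulfate supply genes above. Ugdh rose 1.65-fold with TGF-alpha (log2 0.72 ± 0.05, edgeR adjusted p = 3.09e-08) and was 1.80-fold lower with gefitinib than with TGF-alpha alone (log2 -0.85 ± 0.05, edgeR adjusted p = 5.23e-09). Slc35d1, whose loss causes Schneckenbecken dysplasia, stood at 20.2 and 20.8 CPM in control, 13.8 and 15.5 with TGF-alpha, and 18.4 and 17.0 with gefitinib. It fell 1.40-fold with TGF-alpha (log2 -0.49 ± 0.11, edgeR adjusted p = 0.00467), though not without TGF-alpha replicate 1 (0.0572), and the difference between gefitinib and TGF-alpha alone missed the threshold (log2 0.28 ± 0.12, edgeR adjusted p = 0.0846). Ugp2 was not called in any comparison.

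Several members come in families whose enzymes share a reaction, so the share of each in its family's level per kilobase of exon was computed, as a description with no test. Chst11 made up 60.0% ± 0.64 of the summed level of Chst11, Chst12 and Chst13 in control cells, 37.6% ± 0.23 with TGF-alpha and 59.1% ± 0.20 with gefitinib added. The sum itself was 85.3 ± 4.47, 55.4 ± 0.02 and 83.3 ± 1.15 CPM per kilobase. Per kilobase, Chst12 was thus the larger part of a smaller sum with TGF-alpha. That order depends on the exon lengths used: in CPM, Chst11 stayed above Chst12 there, at a mean of 115 beside 81.6. Xylt1 went from 61.4% ± 0.83 of the xylosyltransferase pair in control to 43.8% ± 0.30 with TGF-alpha and 65.2% ± 3.02 with gefitinib added. In CPM, Xylt1 also stayed above Xylt2 with TGF-alpha, at a mean of 89.1 beside 47.1. Sulf1 made up 38.5% ± 0.67 of the endosulfatase pair in control, 51.5% ± 0.00 with TGF-alpha and 32.9% ± 0.65 with gefitinib. The summed level of Sulf1 and Sulf2 moved little, at 80.2 ± 1.34, 76.2 ± 3.56 and 80.6 ± 0.43 CPM per kilobase.

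Hs6st2 made up 67.6% ± 1.79 of the pair of 6-O-sulfotransferase genes in control, 77.7% ± 0.64 with TGF-alpha and 66.5% ± 0.05 with gefitinib added. Papss2 made up 68.9% ± 1.37 of the PAPS synthase pair in control, 61.8% ± 0.53 with TGF-alpha and 70.6% ± 0.66 with gefitinib. The PAPS synthase sum was 154.6 ± 2.22 CPM per kilobase in control, 108.9 ± 3.52 with TGF-alpha and 161.0 ± 2.11 with gefitinib. The Ext1 share was nearly flat, at 25.8%, 25.3% and 24.9%, and so was that of Chst3 in the pair with Chst7 in control and TGF-alpha cells, at 37.6% and 37.3%.

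**Figure D3:**
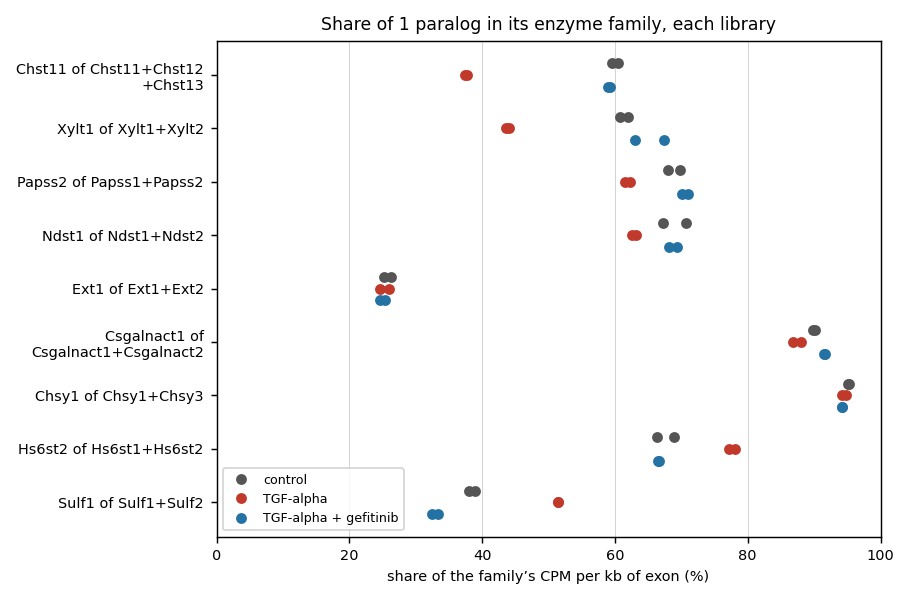
Share of 1 gene in the summed level per kilobase of its family (x axis, percent) in each library, with 1 row per family, points for single libraries and colours for the 3 groups. Chst11, Xylt1 and Papss2 have their lowest shares in the TGF-alpha libraries, Sulf1 and Hs6st2 their highest, and Ext1 stays near 25%.

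Compared per kilobase of exon, Papss2 had the highest level of all tested members in each group, at 107 CPM per kilobase in control and 67.4 with TGF-alpha. In control cells it was followed by Chst11 (51.1 ± 2.14), Sulf2 (49.3 ± 0.29), Csgalnact1 (49.04 ± 0.73) and Papss1 (48.1 ± 1.43), and each of these neighbours lay within the larger SD of the pair. Chsy1 (45.5 ± 0.34) came next, below Papss1 by more than that. With TGF-alpha the next highest were Dse (43.8 ± 1.46) and Ugdh (43.2 ± 0.01), which lay within the SD of Dse, and then Ext2 (42.1 ± 1.10) and Papss1 (41.6 ± 1.92), which lay within that of Papss1. Chst11 stood at 20.8 there. The lowest levels in control were those of Chst3 (1.17), Hs3st3a1 (0.81), Hs3st3b1 (0.57) and Chst15 (0.47). Chst1 moved from 1.54 in control to 9.54 with TGF-alpha and 0.67 with gefitinib added.

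**Figure D4:**
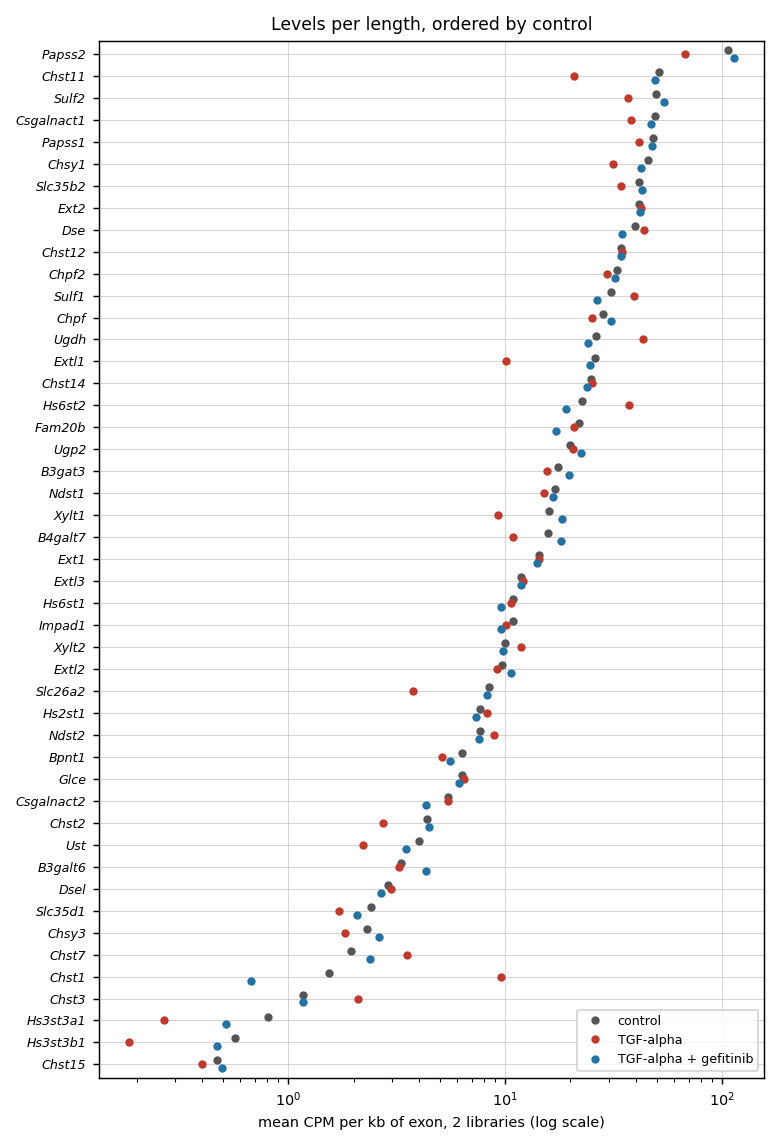
Mean level of the tested members in CPM per kilobase of exon (log axis) in the 3 groups, ordered by the control level. Papss2 is the highest in every group, and the TGF-alpha points of Chst11, Extl1 and Slc26a2 lie to the left of their control points while those of Chst1, Hs6st2 and Ugdh lie to the right.

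Of 20 other tested genes of the same pathways, 3 rose and 5 fell with TGF-alpha, a called share of 40%, not far from the 29.9% of all tested genes. When gefitinib was added to TGF-alpha, 6 were higher and 3 lower, or 45% beside 34.0%. Gfpt2 and Gfpt1 start the route to the hexosamine donors. Gfpt2 stood at 64.0 and 70.4 CPM in control, 36.3 and 38.3 with TGF-alpha, and 65.4 and 64.1 with gefitinib, a fall of 0.85 ± 0.07 on the log2 scale with TGF-alpha (edgeR adjusted p = 4.97e-07). Gfpt1 also fell with TGF-alpha (log2 -0.42 ± 0.05, edgeR adjusted p = 1.06e-05) and was still below control with gefitinib added (log2 -0.21, edgeR adjusted p = 0.0129). Of 24 tested core protein genes, which carry the chains, 7 rose and 11 fell with TGF-alpha, where 15.9% and 14.0% of all tested genes did. Acan, the core protein of aggrecan, stood at 5897 and 5530 CPM in control, 1960 and 1842 with TGF-alpha, and 5821 and 5969 with gefitinib. It fell 3.01-fold with TGF-alpha (edgeR adjusted p = 3.35e-12), and Col9a2 fell 4.53-fold (edgeR adjusted p = 3.14e-12). Both are also products of differentiated chondrocytes, and Acan is in the marker list above. Col18a1, a basement membrane heparan sulfate proteoglycan, rose 4.50-fold with TGF-alpha (edgeR adjusted p = 4.08e-12), from 39.6 and 43.6 CPM to 185 and 189.6, and was 35.9 and 35.8 CPM with gefitinib added. This class did not move together. Hspg2, far more abundant at a mean of 3882 CPM in control, fell (log2 -0.60 ± 0.05, edgeR adjusted p = 5.33e-07). Agrn also fell with TGF-alpha (log2 -0.16 ± 0.05, edgeR adjusted p = 0.0308).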

How the data were processed

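RNA from 6 libraries was sequenced with Ion Proton protocols, per the labels. The authors deposited raw counts per gene in 1 table for all libraries; GRCm38 is the build named in the submitters' processing notes, and neither the aligner and counter nor the annotation and strand setting is given in the sources used here. Counts were tested as deposited with edgeR 4.0.16 in R 4.3.3: TMM scaling, filterByExpr with a minimum count of 10, and the quasi-likelihood test on all 6 libraries, two-sided, with Benjamini-Hochberg adjustment over all 15362 tested genes and a threshold of 0.05. Levels are CPM on TMM-scaled totals; CPM per kilobase uses merged exon lengths from GENCODE M21. The test was checked on simulated data, with 2-fold changes set in genes of many counts. It was not checked there for smaller changes or for genes with few counts. The members and all gene lists were chosen with earlier results of these data known. The text gives library values, in each role and comparison, for the 4 called members of smallest p (with none called, the 2 most abundant; 32 members in all), and up to 3 genes of each further list, of which some are not reported here. Promoter windows are from RefSeq on GRCm38.p6. The 2 libraries per group left 3 residual degrees of freedom and 11.2 prior ones, and the biological coefficient of variation was 6.08%. Replicates differed by more than counting noise (chi-square per degree of freedom 3.03 to 3.83). Alternatives were DESeq2 1.42.0, other scalings and filters, only the libraries compared, a replicate block and leaving out each library.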

Additional observations from a re-analysis of the deposited data

How the results depend on the processing

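Under the alternatives run, no called member reversed its direction. Of the 25 calls between TGF-alpha and control 18 held under every alternative, of the 27 between TGF-alpha plus gefitinib (here called gefitinib) and TGF-alpha alone 22, and of the 6 between gefitinib and control 1, that of Fam20b. In this last comparison the members called higher, 1 in the report, numbered 0 with DESeq2, 4 with library totals and 0 to 1 with a library left out; those called lower, 5 in the report, numbered 3 with library totals and 1 to 5 with a library left out, the 1 being without control 2. With library totals the members' median was -0.039 in place of -0.10 between TGF-alpha and control, and 0.021 in place of -0.04 between gefitinib and control. Over all genes the last comparison gave 1463 calls, 877 with DESeq2, and 649 to 1291 with a library left out (649 without control 2, 666 without control 1, 893 without gefitinib replicate 2). With a library left out, members called with TGF-alpha against control were 5 to 8 higher and 13 to 19 lower, and with gefitinib against TGF-alpha 15 to 18 higher and 7 to 10 lower. DESeq2 also left uncalled Dse (adjusted p = 0.1), Ndst1 (0.0839) and Chsy3 (0.184) with TGF-alpha, Hs3st3b1 (0.0682), Csgalnact2 (0.0794), Chst7 (0.173), Xylt2 (0.107) and Papss1 (0.0555) between gefitinib and TGF-alpha alone, and Xylt1 (0.0976) between gefitinib and control. Some alternatives also added calls: for 4 members between TGF-alpha and control (Chpf, Chpf2, Ndst2, Xylt2), 3 between gefitinib and TGF-alpha alone (B3galt6, Ndst1, Ndst2) and 4 between gefitinib and control (B4galt7, Chpf, Csgalnact2, Sulf2). Libraries with the same number did not deviate together (r from -0.0237 to 0.0106 over genes), so the numbers were not taken as pairs; with the replicate block 7 members were higher and 19 lower with TGF-alpha, 17 and 9 with gefitinib against TGF-alpha, and 1 and 5 with gefitinib against control. The lone library left in a group was assumed to vary like the others. Depth limits Hs3st3a1, Hs3st3b1, Chst15, Chst7, Chst3 and Chst1, and 2 members could not be tested.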

Other observations

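Genes linked to the breakdown of glycosaminoglycans were counted as a separate list. Not all of them encode lysosomal enzymes that cut the chains, since Sumf1, Sumf2, Hyal2 and Hpse2 are also listed. Of 19 tested degradation genes, 5 rose and 2 fell with TGF-alpha, a called share of 36.8%, near the 29.9% of all tested genes. When gefitinib was added to TGF-alpha, 9 were higher and 2 lower, or 57.9% beside 34.0%. Against control, 10 were higher with TGF-alpha plus gefitinib and none lower, where 5.27% of all genes were higher; the median log2 fold change was 0.32. Hexa, which encodes a lysosomal hexosaminidase subunit, stood at 186 and 191 CPM in control, 209 and 223 with TGF-alpha, and 279 and 287 with gefitinib added, a difference from control of log2 0.59 ± 0.05 (edgeR adjusted p = 5.4e-06). Its rise with TGF-alpha passed the test (edgeR adjusted p = 0.0095), and so did the further rise with gefitinib added (edgeR adjusted p = 2.62e-05).

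Arsb, which removes 4-sulfate groups from chondroitin and dermatan sulfate, rose with TGF-alpha (log2 0.40 ± 0.06, edgeR adjusted p = 0.000115) and stayed above control with gefitinib added (log2 0.41, edgeR adjusted p = 0.000513). Idua, the iduronidase of dermatan and heparan sulfate breakdown, fell with TGF-alpha (log2 -0.33, edgeR adjusted p = 0.0106) and was above control with gefitinib added (log2 0.55, edgeR adjusted p = 0.000769). With library totals in place of composition scaling, all genes called between gefitinib and control lean further to the higher side, 1333 against 388 lower. Upper quartile scaling split them into 723 higher and 784 lower. No group with gefitinib alone was analysed here, so what gefitinib does without TGF-alpha was not tested.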
